A study of Mus musculus with 6 samples.

Results

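Core histone genes of the replication-dependent kind were compared between mouse hearts that overexpressed the miR-302-367 microRNA cluster and control hearts. A gene was counted when its symbol was that of a clustered H2A, H2B, H3 or H4 gene and when at least 1 probe of the array was annotated to that gene alone. The probe with the highest mean over the 6 arrays stood for the gene. Of 22180 genes with a probe of their own, 21 met the rule, made up of 6 H2A, 8 H2B and 7 H4 genes, and 0 were H3 genes. A further 36 genes with such symbols had only probes shared with other histone genes, namely 11 H2A, 8 H2B, 12 H3 and 5 H4 genes, so that 57 genes fitted the symbols in all.

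Each nucleosome wraps DNA around pairs of the core histones H2A, H2B, H3 and H4, and the linker histone H1 binds where the DNA enters and leaves. Cells meet the demand of S phase from many near-identical, intronless genes that lie in clusters. Their messages end in a conserved stem-loop in place of a poly(A) tail, and the stem-loop binding protein Slbp carries them through processing, export and translation. The coactivator Npat drives their transcription in S phase, after which the messages are degraded. Heart muscle cells of the mouse stop dividing in the days after birth.

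The arrays measured total RNA of heart, 1 sample per array. The 3 control samples carried Nkx2.5-Cre alone, in which the cardiac progenitor gene Nkx2.5 drives Cre recombinase, so that recombination is not general to every heart cell. The 3 transgenic samples carried Nkx2.5-Cre together with R26R-miR302-367, a copy of the cluster at the Rosa26 locus that Cre switches on, and both groups shared the mixed C57BL/6 x 129S6 background. The labels give a harvest at postnatal day 14 in the source and protocol fields but E14 in the age field, and which is right was not tested. They do not say whether the samples of a group came from separate animals, so the p-values cover only how these samples spread, and that spread may be technical. All values are the deposited log2 expression values, and a log2 fold change is transgenic minus control. RNA was reverse transcribed from a poly(T) primer, and how far this step takes up messages without a poly(A) tail was not tested.

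All 5 genes of the cluster matched the labels, and Mir302c stood at 3.60, 3.53 and 2.98 in the control samples against 10, 9.97 and 9.97 in the transgenic samples. Correlations across probes were 0.982 to 0.989 within a group and 0.974 to 0.983 between groups. Cardiomyocyte markers marked the tissue as heart, with 0 of 12 called in either direction and a mean level of 12.09 to 12.18 in the control and 12.13 to 12.17 in the transgenic samples. In such whole-heart samples fewer cells of a type and less RNA per cell cannot be told apart. Because the value table held no detection calls, 1394 olfactory and vomeronasal receptor genes, which heart is not known to use, served as a guide to dim probes. The median of their mean values was 3.39 and the 95th percentile 5.39. Of the 21 histone genes, 10 lay above that value and 11 below it. Probes of different genes were not compared in level beyond this guide.

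The promoters of the 4 histone genes that passed the test below are shown first, because all of the called genes belong to the cluster on chromosome 13 and their upstream regions can be read side by side. The sequences are the 150 bases before the annotated start, from RefSeq on GRCm38.p6, each on the plus strand, at chr13:23746584-23746733 for H2bc3, chr13:23533725-23533874 for H2ac10, chr13:21811596-21811745 for H4c17 and chr13:21721894-21722043 for H2bc14. Capitals mark the TATA box string TATAAA, the CCAAT box on either strand, the octamer ATTTGCAT that the factor Oct1 binds in H2B promoters, and the E2F-type strings, namely TTTCCCGC, TTTCGCGC, TTTGCCGC and TTTGGCGC.
H2bc3: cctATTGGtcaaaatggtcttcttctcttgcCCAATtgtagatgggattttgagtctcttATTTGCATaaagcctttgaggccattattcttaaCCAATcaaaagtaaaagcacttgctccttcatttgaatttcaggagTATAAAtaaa
H2ac10: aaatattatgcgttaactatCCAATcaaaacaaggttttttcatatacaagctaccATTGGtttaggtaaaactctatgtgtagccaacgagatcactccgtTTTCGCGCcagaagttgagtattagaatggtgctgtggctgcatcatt
H4c17: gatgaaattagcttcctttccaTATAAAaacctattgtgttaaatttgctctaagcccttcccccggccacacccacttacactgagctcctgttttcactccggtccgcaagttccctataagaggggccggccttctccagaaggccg
H2bc14: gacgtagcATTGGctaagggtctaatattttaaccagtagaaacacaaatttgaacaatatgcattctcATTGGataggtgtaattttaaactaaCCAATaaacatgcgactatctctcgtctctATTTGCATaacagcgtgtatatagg

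The printed windows had few features in common. The octamer stood 90 bases before the start of H2bc3 and 25 bases before that of H2bc14, both of which encode H2B. CCAAT occurred on either strand in H2bc3, H2ac10 and H2bc14 but not in H4c17. The E2F-type string TTTCGCGC lay 48 bases before the start of H2ac10.

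RefSeq promoters were found for 19 of the 21 genes, all but H2bc21 and H4c14, and both strands of the 250 bases before the start were searched. CCAAT was found in 6 of 6 H2A, 7 of 7 H2B and 1 of 6 H4 promoters, against 33.8% of the 32851 mouse promoter windows of that length. The octamer was found in 3 of 6 H2A, 5 of 7 H2B and 0 of 6 H4 promoters, against 1.6% of all windows. TATAAA was found in 10 of the 19 promoters (12.4% of all windows) and an E2F-type string in 4 (1.86%). Matches counted at any distance from the start. TATAAA lay 30 bases before it in H2ac21, 10 in H2bc3 and 128 in H4c17, and in H2bc12 only on the opposite strand. The string GGTTTTCAA, searched as an H4 promoter element, was found in 0 of the 19 (0.222%). Only this exact string was searched, and forms of the element with other letters were not. Its count therefore cannot show whether the H4 promoters have or lack that element. No matches overlapped each other. H2A and H2B genes often share a divergent promoter, so 1 site can count for both genes of a pair, as with H2ac12 and H2bc12, whose starts lie 178 bases apart, and with H2ac1 and H2bc1, 281 bases apart. A match is a description of letters and not evidence of binding, and the octamer was found both in promoters of called genes and in that of H2bc1, which had a negative fold change. The E2F-type strings were found in the promoter of the called gene H2ac10 and in those of H4c1, H2bc12 and H2bc22, which were not called.

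Of the core histone genes, 4 rose in the transgenic hearts and 0 fell, by limma with Benjamini-Hochberg adjustment over all 22180 genes and a threshold of 0.05. They were the H2B genes H2bc3 and H2bc14, the H2A gene H2ac10 and the H4 gene H4c17. The share was 19.0% of the 21, beside 5.35% of all genes called higher and 5.76% called lower. At an unadjusted p under 0.05, 9 were higher and 0 lower. The fold change was positive for 15 of the 21 genes and negative for 6, with a median of 0.33, while the median over all genes was -0.03 and 43.34% of all genes were positive. For 9 genes every transgenic value lay above every control value (14.2% of all genes), for 1 every transgenic value lay below (16.7% of all genes), and for 11 the groups overlapped. Without control 2 the number called higher was 7, and without transgenic 2 or transgenic 3 it was 2.

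**Figure D1:**
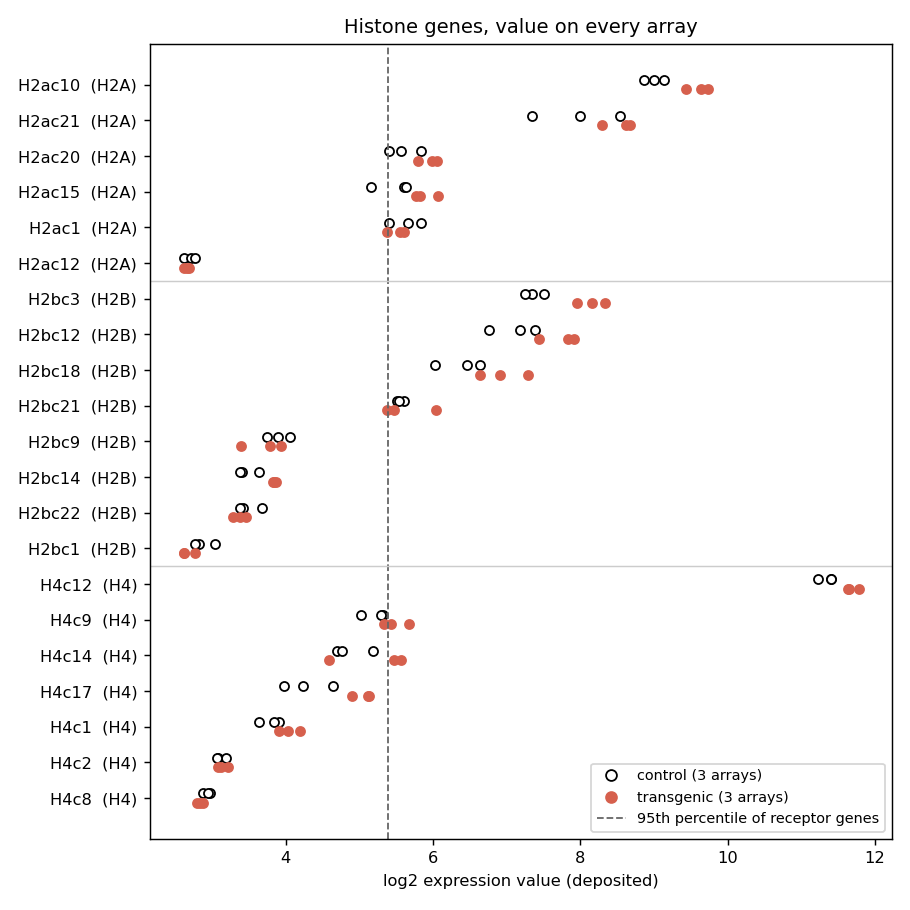
Deposited log2 values (x axis) of the 21 core histone genes (y axis, by class and then by mean) on each of the 3 control arrays (open points) and 3 transgenic arrays (filled points), with the 95th percentile of the receptor genes (5.39) as a dashed line. The groups are apart for H2bc3, H2ac10, H4c17 and H2bc14 among others, while the genes at the foot of each class overlap or nearly so.

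Among the H2B genes, whose products pair with H2A, H2bc3 had the largest difference. Its values were 7.34, 7.5 and 7.25 in the control samples and 8.16, 7.96 and 8.34 in the transgenic samples. The groups did not overlap, and the log2 fold change was 0.79 (SE 0.118, limma adjusted p = 0.00428). H2bc3 was called under all 14 alternative settings, with adjusted p no higher than 0.0226.

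H2bc12 and H2bc18 had positive differences that did not pass the test. H2bc12 stood at 7.18, 7.39 and 6.76 in the control samples and at 7.91, 7.44 and 7.83 in the transgenic samples, a log2 fold change of 0.62 (limma adjusted p = 0.0583). Its groups were apart only by the small step from control 2 to transgenic 2, and the adjusted p ran from 0.0295 to 0.186 over the 14 settings. The gene was called under 4 of them, which were without control 2 (0.038) and, with all arrays kept, without the dimmest genes (0.0416), with an intensity trend (0.0295) and with array weights (0.0465). H2bc18 stood at 6.46, 6.64 and 6.02 against 6.91, 6.64 and 7.29, with a log2 fold change of 0.57 (limma adjusted p = 0.0986), and control 2 and transgenic 2 met at the same rounded value.

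The other H2B genes lay near or below the level of the receptor genes. H2bc14 had values of 3.40, 3.64 and 3.38 in the control samples and 3.84, 3.87 and 3.82 in the transgenic samples. The groups did not overlap and the log2 fold change was 0.37 (SE 0.0966, limma adjusted p = 0.0417), all at a level that receptor genes also showed. Leaving out any array other than control 2 ended this call, with adjusted p = 0.128 for control 1, 0.0872 for control 3, 0.115 for transgenic 1, 0.132 for transgenic 2 and 0.0989 for transgenic 3. With all 6 arrays kept, it was also lost when each array was centred on its median (adjusted p = 0.0806) and with the replicate number as a block (0.0593). H2bc21, reported in human tissue to make polyadenylated messages in cells that do not divide, stood at 5.51, 5.60 and 5.53 against 5.47, 6.04 and 5.37, so that only transgenic 2 lay above the controls (log2 fold change 0.08, limma adjusted p = 0.812). H2bc9 and H2bc22 had log2 fold changes of -0.19 and -0.12 with overlapping groups.

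Among the H2A genes, H2ac10 rose. Its values were 9.0, 8.86 and 9.13 in the control samples and 9.73, 9.43 and 9.64 in the transgenic samples. The groups did not overlap, the log2 fold change was 0.61 (SE 0.110, limma adjusted p = 0.00984), and the call held under all 14 alternative settings with adjusted p no higher than 0.0462. H2ac15, with 5.60, 5.63 and 5.16 against 6.06, 5.77 and 5.82, also had groups that did not overlap, but its log2 fold change of 0.42 did not pass the test (limma adjusted p = 0.100). H2ac20, on chromosome 3, stood at 5.57, 5.83 and 5.40 against 5.80, 5.99 and 6.05, with overlapping groups and a log2 fold change of 0.35 (limma adjusted p = 0.121).

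H2ac21 showed how far the control samples could differ. It stood at 8.0, 8.54 and 7.34 in the control samples, an SD of 0.599 that was the highest of the 21 genes, and at 8.67, 8.30 and 8.62 in the transgenic samples. The groups overlapped through control 2, and the log2 fold change of 0.57 had an SE of 0.258 (limma adjusted p = 0.206). Without control 2 the adjusted p of H2ac21 was 0.037, and that of H2ac20 was 0.0497. A second, dimmer probe of H2ac21 read 4.0, 4.09 and 3.99 against 3.87, 4.14 and 3.95, with no such difference. H2ac12 was at 2.61, 2.71 and 2.77 against 2.62, 2.69 and 2.66, below the receptor median of 3.39.

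The H4 genes all encode the same or nearly the same protein. H4c17 was the one called, with 4.64, 4.23 and 3.98 in the control samples and 4.90, 5.12 and 5.13 in the transgenic samples. The groups did not overlap and the log2 fold change was 0.77 (SE 0.160, limma adjusted p = 0.0178), again below the receptor percentile. The call was lost without transgenic 2 (adjusted p = 0.0721) or transgenic 3 (0.0648).

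H4c12, the only H4 gene above the receptor percentile, had groups that did not overlap, with 11.41, 11.40 and 11.23 against 11.63, 11.65 and 11.78. Its log2 fold change of 0.34 (SE 0.0934) missed the threshold by little (limma adjusted p = 0.0505), and it passed when the dimmest genes were left out, with an intensity trend, or with array weights. H4c9 and H4c1 also had groups that did not overlap, with log2 fold changes of 0.26 and 0.25 (limma adjusted p = 0.219 and 0.203). H4c14 stood at 4.69, 4.76 and 5.18 against 5.47, 4.59 and 5.56, so that transgenic 2 was the lowest of all 6 arrays (log2 fold change 0.33, limma adjusted p = 0.462). H4c2 and H4c8, at 0.03 and -0.09, were dim on every array.

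**Figure D2:**
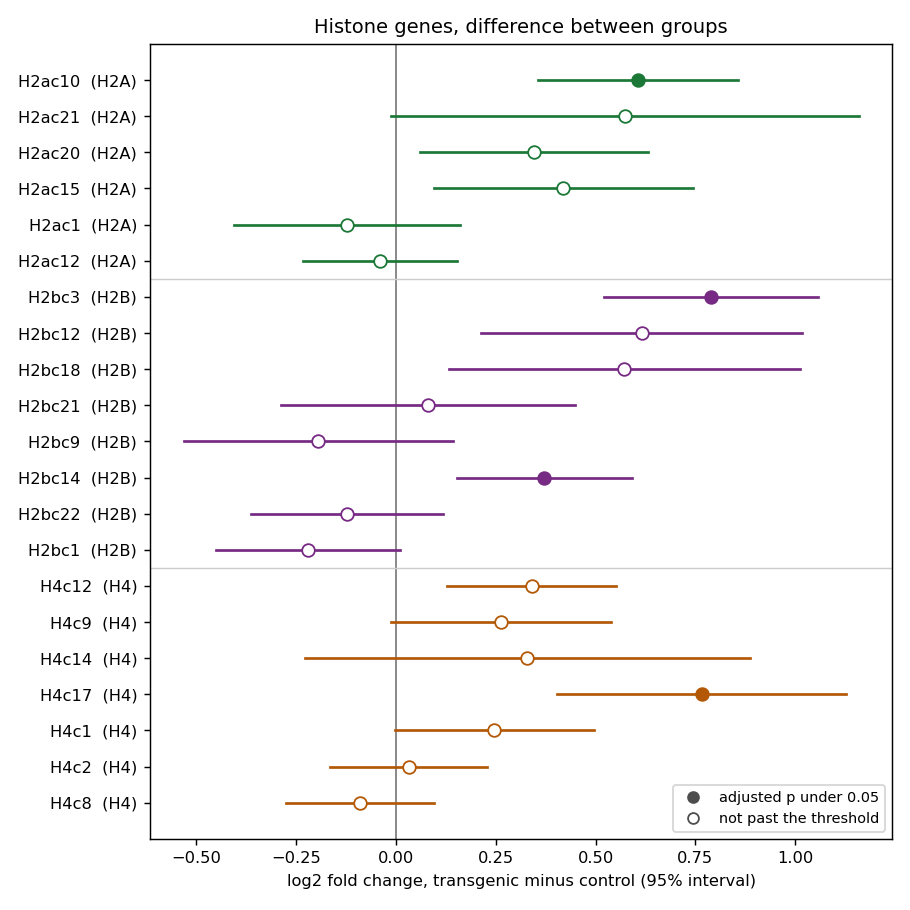
Log2 fold change, transgenic minus control (x axis), of each of the 21 core histone genes (y axis, in the same order as the plot of values by array), with bars for the limma 95% interval and filled points for an adjusted p under 0.05. H2bc3 (0.79), H4c17 (0.77), H2ac10 (0.61) and H2bc14 (0.37) are filled, and the intervals of H2ac21 and H4c14 are the widest and include 0.

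Of the 21 genes, H2ac1 and H2bc1 fit the symbol rule but are known as the testis forms of H2A and H2B. H2ac1 stood at 5.40, 5.66 and 5.83 against 5.55, 5.37 and 5.60 (log2 fold change -0.12, limma adjusted p = 0.603). H2bc1 stood at 2.82, 3.04 and 2.77 against 2.61, 2.76 and 2.61 and was the 1 gene whose transgenic values all lay below the control values, at a log2 fold change of -0.22 (limma adjusted p = 0.219). The gap between the nearest arrays was at the last printed digit. With the testis linker histone H1f6 (-0.13), all 3 measured testis histone genes had negative fold changes and 0 were called.

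The fold changes were also set beside the level of a gene and beside the values of control 3, and neither relation was tested. Of the 10 genes above the receptor percentile, 9 were positive and 2 called, with a median of 0.50. Of the 11 below, 6 were positive and 2 called, with a median of 0.03. Over all genes, 8.26% of those above the percentile and 0.922% of those below were called higher, with medians of -0.01 and -0.05. Control 3 was the lowest control for 12 of the 21 genes and for 7 of the 10 above the percentile, against 39.25% of all genes. The mean of those 10 genes was 7.15, 7.31 and 6.96 in the control samples and 7.59, 7.46 and 7.63 in the transgenic samples, so that every transgenic array lay above every control array. Without control 3, 3 genes were called higher.

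By position, 16 of the 21 genes lie on chromosome 13, in the large cluster, and 5 on chromosome 3. On chromosome 13, 4 were called and 10 were positive, with a median of 0.25. On chromosome 3, 0 were called but all 5 were positive, with a median of 0.35. The difference between the clusters was not tested. Of the divergent partners with probes of their own, H2bc12 had 0.62 and H2ac12 had -0.04. In the other such pair, H2bc1 had -0.22 and H2ac1 had -0.12. H2ac12 and H2bc1 had means of 2.68 and 2.77, below the receptor median of 3.39. At that level the values cannot show whether partners run together.

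Shared probes gave the only view of the 36 genes without a probe of their own. On the array 37 probes listed several histone genes, 34 of them with distinct values, and 14 of the 21 genes were also listed there. A shared probe can report several near-identical messages and cannot be assigned to 1 gene. When these probes were fitted with all others (23555 probes), 11 of the 34 were called higher, or 32.4%, and 0 lower, beside 5.29% of all probes called higher. The groups did not overlap, with the transgenic arrays higher, for 15 of the 34, or 44.1%, beside 14.1% of all probes, and 0 were apart in the other direction. The median log2 fold change was 0.32 and 24 of the 34 were positive. Of the 34, 11 lay above the receptor percentile, among them 2 of 12 H3 and 0 of 5 H4 probes. Of those 11, 7 were called higher, beside 8.26% of all genes above the percentile. The other called probes lay below it. Called higher were 3 of 9 H2A, 4 of 7 H2B, 2 of 12 H3 and 1 of 5 H4 probes, and the 1 probe listing H1f4 with 3 H2B genes. Without transgenic 2 the number called was 6, and without control 1 or transgenic 3 it was 7.

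Of the 6 shared probes with a mean above 10, a limit set after their values were seen, 4 were called higher and 2 were not. An H2B probe listing 12 genes read 11.41, 11.41 and 11.39 in the control samples and 12.02, 12.01 and 12.04 in the transgenic samples, a log2 fold change of 0.61 (SE 0.0787, limma adjusted p = 0.00236). An H2B probe for H2bc7, H2bc11, H2bc13 and H2bc15 read 12.33, 12.28 and 12.25 against 12.81, 12.76 and 12.76, a log2 fold change of 0.49 (limma adjusted p = 0.00692). An H2A probe listing 10 genes read 10.26, 10.24 and 10.21 against 10.93, 10.76 and 10.89, a log2 fold change of 0.63 (limma adjusted p = 0.00323). The fourth, an H2A probe listing 12 genes, read 10.70, 10.70 and 10.64 against 11.05, 11.07 and 11.16 (log2 fold change 0.41, limma adjusted p = 0.0156), and in these 4 the groups did not overlap. Of the 2 that were not called, the H2A probe for H2ac18, H2ac19 and H2ac20 read 10.94, 11.12 and 10.86 against 11.42, 11.06 and 11.62, with overlapping groups and a log2 fold change of 0.39 (limma adjusted p = 0.126), and the other lists H2bc4, H2bc6 and H2bc8.

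H3, which had no gene with a probe of its own, was seen through probes listing 8 or 4 genes. One probe of the 8-gene set read 7.48, 7.58 and 7.57 in the control samples and 7.95, 8.18 and 8.12 in the transgenic samples, a log2 fold change of 0.54 (limma adjusted p = 0.00833). Another of that set read 4.2, 3.77 and 4.2 against 5.30, 4.88 and 5.17, a log2 fold change of 1.06 (limma adjusted p = 0.00356). The mean of this second probe, 4.588, lay below the receptor percentile. The other 6 probes of the set were not called. Of the 4 probes for H3c1, H3c8, H3c10 and H3c11, 0 were called, and their log2 fold changes ran from -0.04 to 0.42.

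Probes that list the same genes did not read alike. The 7 probes listing the same 10 H2A genes had log2 fold changes from -0.21 to 0.84, and 2 were called higher. Of the 2 probes for H2bc4, H2bc6 and H2bc8, the brighter read 10.54, 10.50 and 10.41 against 10.57, 10.31 and 10.27 (log2 fold change -0.10, limma adjusted p = 0.602). The other read 4.95, 5.21 and 4.05 against 6.05, 5.81 and 5.57 (log2 fold change 1.07, limma adjusted p = 0.0372). The mean of this dimmer probe, 5.275, lay below the receptor percentile. Which messages each probe detects was not tested.

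**Figure D3:**
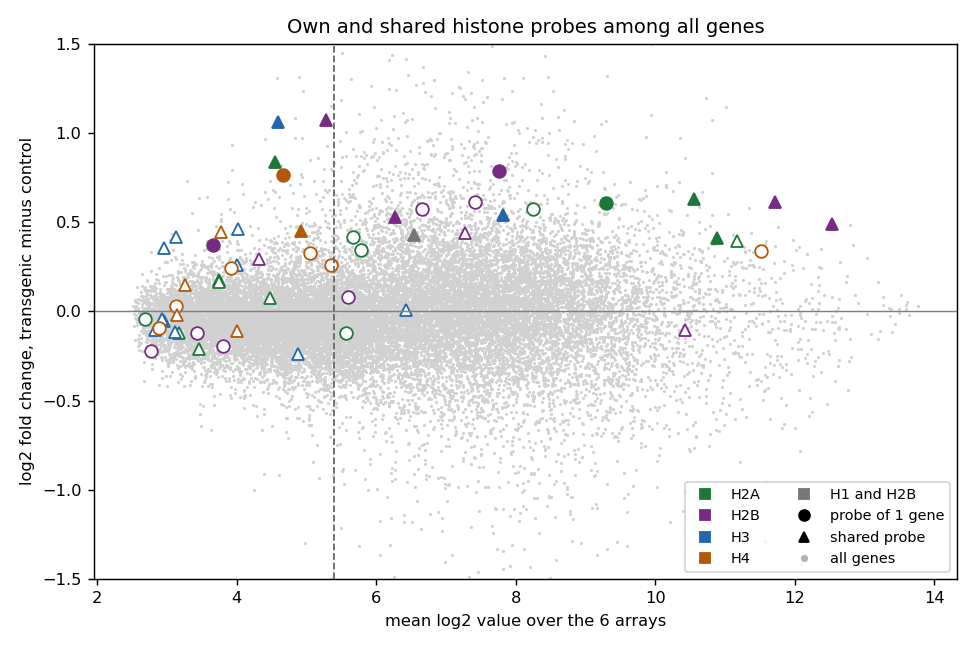
Mean log2 value over the 6 arrays (x axis) against log2 fold change, transgenic minus control (y axis), for the 21 core histone genes (circles) and 34 shared histone probes (triangles), coloured by class and filled where the adjusted p was under 0.05, over all genes (grey dots, 56 of which lie beyond the y axis limits of 1.5 in either direction). The dashed line is the receptor percentile, and the shared H2A and H2B probes at the right lie between -0.10 and 0.63.

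Linker histone genes and some other histone genes carry newer symbols that the rule does not take, and 9 genes with a probe of their own met it only by an older symbol. H1f2, a replication-dependent H1 gene, stood at 8.54, 8.81 and 8.53 in the control samples and at 9.43, 9.60 and 9.81 in the transgenic samples. The groups did not overlap, the log2 fold change was 0.98 (SE 0.125, limma adjusted p = 0.00208), and the call held under all 14 alternative settings. H1f3 (log2 fold change 0.49, limma adjusted p = 0.0276) and the H4 gene H4f16 (0.55, limma adjusted p = 0.0239) were also called. H1f3 lost its call without control 1, control 2, transgenic 1 or transgenic 3 (adjusted p up to 0.102), and H4f16 without control 1, transgenic 1 or transgenic 3 or when its probes were averaged (up to 0.0924).

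H1f5 showed control 3 apart from the others, at 7.05, 7.05 and 5.75 in the control samples against 7.45, 7.46 and 7.49. Its log2 fold change of 0.85 did not pass the test (limma adjusted p = 0.114), and the value was 0.42, and called, without control 3. With these 9 genes counted in, 7 of 30 genes were called higher (5.35% of all genes) and 0 lower (5.76%), with a median of 0.34. The 9 include the testis gene H1f6 and, by their symbols, the pseudogenes H2af-ps2 (0.64, limma adjusted p = 0.169) and H2bu1-ps (-0.06, limma adjusted p = 0.7685). None of these was called. Of the genes reported in human tissue to yield polyadenylated messages outside S phase, 4 of 7 had a probe of their own and H1f2 and H4f16 were called, while H2aw (0.45, limma adjusted p = 0.0666) and H2bc21 were not.

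Histone variants are made from separate genes, most of them also outside S phase, and 8 of the 11 listed had a probe of their own. Called higher were 3 and lower 0, with a median of 0.26, beside 5.35% of all genes called higher and 5.76% called lower. For all genes above the receptor percentile the share called higher was 8.26%, and 1 of the 8 lay below it. H2ax, the variant phosphorylated at DNA breaks, stood at 8.16, 8.31 and 8.26 in the control samples and at 9.04, 9.26 and 9.24 in the transgenic samples, a log2 fold change of 0.94 (limma adjusted p = 0.000814) that was called under all 14 alternative settings. Macroh2a1, a variant linked to silent chromatin, had 0.49 (limma adjusted p = 0.0167), and H2az2 had 0.37 (limma adjusted p = 0.0396). With any 1 array left out, 1 or 2 of the 8 were called, and the calls of H2az2 (without any 1 of the 6 arrays) and Macroh2a1 (without any 1 transgenic array) were the ones lost. With all 6 arrays kept, H2az2 also lost its call when arrays were centred (limma adjusted p = 0.0817) and with the replicate block (0.08).

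Of the genes that make and process histone messages, 23 were measured. Of these, 3 were called higher and 1 lower, with a median of 0.06. Over all genes 5.35% were called higher and 5.76% lower. Of all genes above the receptor percentile, 8.26% were called higher, and 1 of the 23 lay below it. Npat, the S-phase coactivator of histone genes, rose from 7.43, 7.59 and 7.30 to 8.01, 7.91 and 7.83, a log2 fold change of 0.48 (limma adjusted p = 0.0195), and lost its call without control 1, transgenic 1 or transgenic 2 (adjusted p up to 0.081). Tut4, a uridylyltransferase that tags histone messages for decay, rose by 0.52 (limma adjusted p = 0.00527) and Lsm10, a subunit of the U7 particle that cleaves histone pre-mRNA, by 0.42 (limma adjusted p = 0.0406, and up to 0.128 without 1 array, with the call kept only without control 2). With all arrays kept, Lsm10 also lost its call when arrays were centred (limma adjusted p = 0.0772) and with the replicate block (0.0517). Slbp, the stem-loop binding protein, stood at 7.54, 7.40 and 7.21 against 7.49, 7.28 and 7.47 (log2 fold change 0.03, limma adjusted p = 0.906), and Casp8ap2, which works with Npat at histone loci, had 0.08 (limma adjusted p = 0.592). Mif4gd, an Slbp partner in translation, fell by 0.34 (limma adjusted p = 0.0415). With 1 array left out, between 1 and 4 of the 23 were called higher, and the call of Mif4gd was lost when any array other than control 3 was left out. Mif4gd also lost its call with the replicate block (limma adjusted p = 0.0849).

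Histone chaperones carry new histones to DNA, and 4 of 20 measured genes were called higher and 0 lower, with a median of 0.15. The shares over all genes were 5.35% higher and 5.76% lower. Among all genes above the receptor percentile 8.26% were called higher, and 1 of the 20 lay below it. The share among the 20 rests on only 4 genes. The 4 were Chaf1b, a subunit of the factor that loads H3 and H4 behind the fork (0.57, limma adjusted p = 0.00457), Rbbp4 of the same complex (0.44, limma adjusted p = 0.0148), the acetyltransferase Hat1 (0.41, limma adjusted p = 0.0255) and Mms22l (0.57, limma adjusted p = 0.0269). Chaf1b was called under all 14 alternative settings. The number called was 1 without transgenic 2 and 2 without control 2, transgenic 1 or transgenic 3. When the probes of a gene were averaged, Rbbp4 and Hat1 were not called and Rbbp4 had 0.05. Hat1 also lost its call when each array was centred on its median (limma adjusted p = 0.0524).

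Genes of DNA replication, which the histone genes accompany in S phase, gave 16 of 32 called higher and 0 lower, all 32 positive, with a median of 0.38. The list also held Mki67, Top2a and Ccna2, whose roles are not limited to replication, and each of them was called higher. Of all genes, 5.35% were called higher and 5.76% lower, and 8.26% of those above the receptor percentile were called higher. Mki67, a marker of cycling cells, stood at 6.85, 7.01 and 6.87 in the control samples and at 7.74, 7.69 and 7.75 in the transgenic samples, a log2 fold change of 0.82 (limma adjusted p = 0.000901). Pole, the leading-strand polymerase, had 0.81, Top2a 0.72 and Tk1 0.51, each called, and Pole lost its call when its probes were averaged (0.34, limma adjusted p = 0.0994), while Pcna, the sliding clamp, had 0.28 (limma adjusted p = 0.12). With 1 array left out, between 10 and 13 of the 32 were called, the lowest number without control 1 or transgenic 1. The median was 0.33 for the 21 core histone genes and 0.38 for the replication genes, and their difference was not tested. The 2 lists differed in level, with 11 of the 21 histone genes but 3 of the 32 replication genes below the receptor percentile. For the histone genes the median was 0.50 above that percentile and 0.03 below it.

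**Figure D4:**
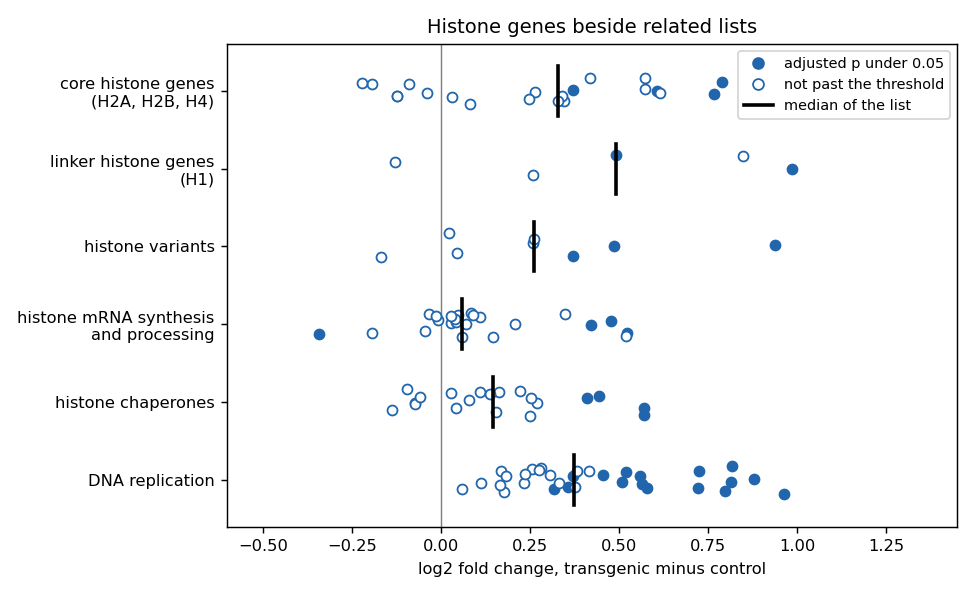
Log2 fold change, transgenic minus control (x axis), of each measured gene of 6 lists (y axis), with filled points for an adjusted p under 0.05 and a bar at the median of the list. All 32 replication genes lie to the right of 0, the core histone genes spread from -0.22 to 0.79, and the genes of histone message synthesis and processing centre near 0.06.

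Markers of other cell types moved between the same samples, for which 5.35% of all genes were called higher and 5.76% lower. Endothelial markers gave 0 of 15 called higher and 10 called lower, with a mean level of 8.89 to 9.01 in the control and 8.49 to 8.62 in the transgenic samples. Macrophage markers gave 0 of 12 higher and 7 lower (6.69 to 6.82 against 6.11 to 6.33), and smooth muscle and pericyte markers 1 of 8 higher and 4 lower (8.82 to 8.95 against 8.67 to 8.86). Fibroblast markers gave 1 of 11 higher and 1 lower. Erythroid markers, of which 8 of 18 had a probe of their own and 5 of those lay below the receptor percentile, gave 0 called (4.99 to 5.10 against 5.05 to 5.14). Lymphoid markers gave 0 of 7 called, with 6 below the percentile. The part of these shifts in the histone values was not tested.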

How the data were processed

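The deposited table held log2 expression values for 41345 probes on 6 arrays, and per the submitters' processing notes the authors used oligo, RMA and limma, with no versions given. Beyond the name RMA, how background was corrected, and whether probes were filtered, is not given in the sources used here. By the platform annotation 23521 probes had a single symbol, 1814 listed several genes and 16010 were unnamed. Where a gene had more than 1 probe (1082 genes), its brightest was kept. Of the resulting 22180 genes, 21994 were found in the RefSeq table of GRCm38.p6. Groups came from the sample titles and genotypes. The comparison used lmFit and eBayes of limma 3.58.1 (R 4.3.3) without covariates and with 4 residual degrees of freedom, with Benjamini-Hochberg adjustment over all genes and a threshold of 0.05. Precision is limited by the number of arrays. The code was tested on simulated data. Members, gene lists and tests were chosen with earlier results of these data known. Lists written with older symbols were matched through RefSeq synonyms.

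Named were every histone gene past the threshold, the 3 brightest genes and the highest and lowest fold change of each class, the polyadenylated and testis lists whole, up to 4 genes by smallest p of the other lists, and Slbp, Npat, Casp8ap2, Pcna and Mki67. The remaining core histone genes, H1f5 and the shared probes described singly were chosen after their values were seen. Alternatives left out the dimmest share of genes, averaged or separately fitted the probes of a gene, normalized by quantiles again, centred each array, used an intensity trend with robust variance, array weights or the replicate number as a block, and left out each array in turn. Adding genes by older symbol, and applying these settings to shared probes, came after seeing the data.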

Additional observations from a re-analysis of the deposited data

How the results depend on the processing

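Under the 14 alternative settings 0 core histone genes were called lower and the median log2 fold change stayed between 0.26 and 0.42, the highest being over the 11 genes that remained without the dimmest genes and not over all 21. The number called higher was 3 to 6 under the settings that kept all 6 arrays and 2 to 7 when 1 array was left out (7 without control 2, 2 without transgenic 2 or 3), and 7 of 30 with the older symbols counted in. Over all genes 2465 were called, between 1171 and 2249 with 1 array left out and between 1996 and 3168 under the other settings. Shared probes called higher numbered 11, between 6 and 10 with 1 array left out and between 8 and 12 otherwise, where the 8 were of the 12 probes that remained without the dimmest, against 34 under the other settings. Fits without an array have fewer residual degrees of freedom. For single genes and related lists, 867 values kept their side of the threshold or stayed within 1.5 times of the count, 73 gene values lost a call, 22 gained one and 19 counts moved further, and 0 called genes changed direction. The causes were not tested. Arrays with the same replicate number did not deviate together (correlations of 0.0163, -0.13 and 0.0138), so the numbers were not taken as pairs. With the replicate number as a block, 3 core histone genes, 12 shared probes and 1996 genes were called. Without scanner files, signal over background is unknown, and the 11 genes below the receptor percentile have the least secure values.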
